A study of Mus musculus with 12 samples.

Results

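Gene expression in the distal small intestine was compared between old and young male C57BL/6J mice on 4 of the 12 Mouse Gene 1.0 ST arrays of the study. The 4 arrays were all those with the distal segment in their label, and each held pooled RNA from scrapings of mucosa and submucosa, from 8 mice of 21 months (old) or 6 mice of 4 months (young). For each age, 1 pool came from mice fed a low-fat diet and 1 from mice fed a high-fat diet, for 2 weeks after a run-in on low-fat food. Fat gave 10% or 45% of the energy, and both diets had palm oil in place of lard. Old was compared with young on the same diet, so that the age difference was measured in a low-fat pair and a high-fat pair of arrays, and the proximal and middle segments of the same 4 pools of mice gave the other 8 arrays. All mice were males of 1 inbred strain, and since each array is 1 pool the spread between animals is not seen.

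The distal small intestine, or ileum, is lined by a single layer of epithelial cells that renews itself from crypts. Its enterocytes digest and absorb the remaining nutrients and take back bile acids, Paneth cells at the crypt base secrete antimicrobial proteins, and the underlying lamina propria and submucosa hold fibroblasts, vessels, smooth muscle, lymphocytes and, in the ileum, many lymphoid follicles. A scraping holds all of these cells, and in such a bulk sample fewer cells of a type and less RNA per cell cannot be told apart.

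All 4 arrays carried high levels of ileal marker genes. Fabp6, the bile acid-binding protein of ileal enterocytes, lay between 13.06 and 13.09 log2 intensity on the distal arrays, against 7.58 to 11.31 in the middle and 4.59 to 6.07 in the proximal segment. Slc10a2, the apical bile acid transporter, lay between 11.65 and 12.01, and Fgf15, the hormone through which the ileum signals bile acid uptake to the liver, between 10.11 and 10.95, in both cases above every middle and proximal array. Among the 4 arrays, 1 stood apart from the other 3: the array of old high-fat mice correlated with the others at Pearson r = 0.9801 to 0.9864 over the 11926 genes tested, and the other 3 correlated with each other at 0.9927 to 0.9940.

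Most genes were at a similar level at both ages. The median old-minus-young difference over the 11926 genes was 0.015 log2 units in the low-fat pair and -0.001 in the high-fat pair. A linear model of all 12 arrays (limma), in which the error of a gene is the departure of its low-fat from its high-fat age difference pooled over the 3 segments, called 19 genes higher in old mice (0.159% of the genes tested) and 49 genes lower (0.411%) at a Benjamini-Hochberg adjusted p under 0.05. Without the high-fat pair, that is without either of its arrays, the calls fell to 0 higher and 1 lower gene, and without the low-fat pair they were 5 and 61. With an intensity trend and robust estimation in the variance model, set together, they rose to 261 and 190.

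Without a test, a 2-fold threshold was passed in the low-fat pair by 10 genes higher in old mice (0.0839% of genes tested) and 18 lower (0.151%), and in the high-fat pair by 4 genes higher (0.0335%) and 62 lower (0.52%). On both diets it was passed by 2 higher genes (0.0168%), Car1 and Pdk4, and by 13 lower genes (0.109%). These 13 were the smooth muscle genes Myl9, Myh11, Actg2, Flna and Pgm5 and, outside the stromal lists, Saa1, Rps4l, ccdc198, Aspn, Pln, Cd59a, Igkv4-55 and Igkv19-93, of which all but Igkv19-93 were called. A gene was tested if its linear intensity was over 50 on at least 1 array. In Saa1, Aspn, Pln, Cd59a and Igkv4-55 both old distal arrays lay below that floor, so the size of these falls is uncertain. Over all genes and at any size of difference, 34.4% were higher in old mice on both diets and 29.5% were lower on both. In 22.4% of genes both old arrays lay above both young arrays, and in 18.6% both lay below.

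**Figure D1:**
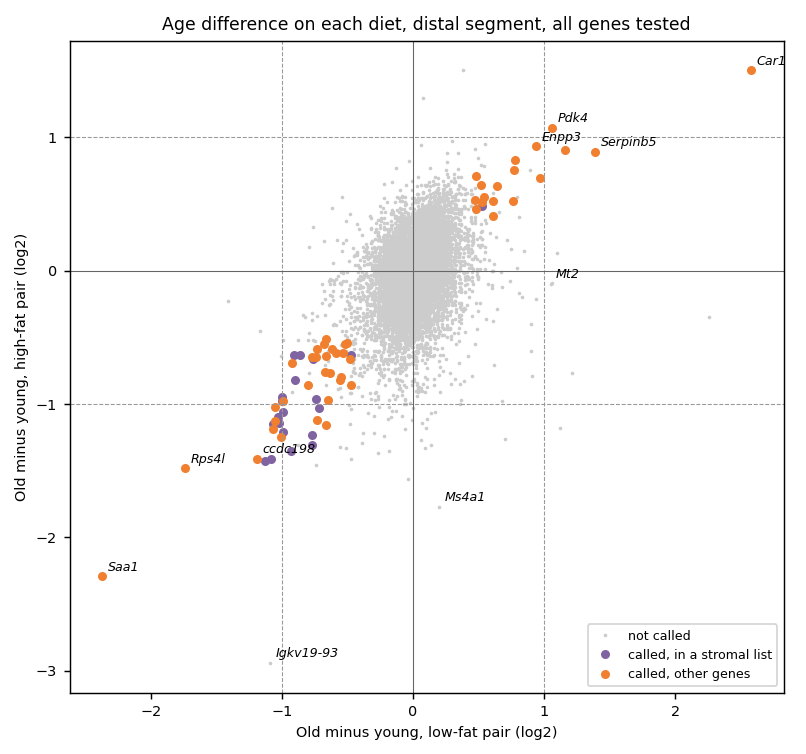
Old-minus-young difference in log2 intensity of each of 11926 genes in the distal segment, in the low-fat pair (x axis) against the high-fat pair (y axis). Coloured points are the 68 genes called by limma, purple those in a list of stromal genes, and dashed lines mark 2-fold. Calls lie near the diagonal because the test takes its error from the departure between the pairs, and genes such as Ms4a1 and Mt2 lie off it.

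The gene with the largest rise was Car1, which codes for carbonic anhydrase I, a cytosolic enzyme of bicarbonate formation that is abundant in the colon. Its log2 intensity was 7.87 in young and 10.45 in old mice of the low-fat pair, and 5.55 in young and 7.05 in old mice in the high-fat pair. Old exceeded young on each diet, but the old high-fat array lay below the young low-fat array, since Car1 was lower on the high-fat diet at both ages, with high-fat minus low-fat differences of -2.33 in young and -3.41 log2 units in old mice. Averaged over the diets the difference was 2.04 log2 units (SE 0.24, adjusted p = 0.0271), or 4.12-fold. Of the 9 carbonic anhydrases tested, none other was called, and Car5b, a mitochondrial form, was lower in old mice on both diets by 1.01 and 0.93 log2 units without passing the test (adjusted p = 0.0648). Of 9 genes listed for colon epithelium 8 had a probe set with a single symbol, and 2 passed the filter on intensity and were tested, Car1 and the water channel Aqp8. Aqp8 was not called (0.25 log2 units, adjusted p = 0.681).

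Pdk4, the kinase that switches pyruvate away from oxidation and favours the burning of fat, was the other gene over 2-fold higher on both diets. It stood at 7.29 in young and 8.35 in old mice of the low-fat pair, and at 7.77 and 8.84 in the high-fat pair. Both old arrays were above both young arrays, and the differences of the pairs, 1.06 and 1.07 log2 units, were nearly equal (estimate 1.07, SE 0.09, adjusted p = 0.00818). Among the 39 tested genes of fatty acid oxidation and ketogenesis Pdk4 was the only call. Of these genes 26 were higher in old mice on both diets and 2 lower, against 34.4% and 29.5% of all genes. Their median was 0.10 log2 units, against 0.004 over all genes, and it was 0.10 proximally and 0.14 in the middle segment. The acyl-CoA thioesterases Acot2 and Acot12, which release fatty acids from coenzyme A, were 0.46 log2 units higher each and were not called (adjusted p = 0.111 and 0.0637). Cyp4a10, a fatty acid omega-hydroxylase, was 0.06 higher in the low-fat and 0.94 higher in the high-fat pair.

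Genes of fat uptake and chylomicron assembly gave 1 call among 26 tested. Fabp1, the liver-type fatty acid-binding protein that is also a main lipid carrier of enterocytes, was at 10.82 in young and 11.43 in old mice of the low-fat pair and at 12.06 and 12.46 in the high-fat pair. The groups overlapped, as the diet difference (1.23 in young and 1.03 in old mice) exceeded the age difference of 0.51 log2 units (SE 0.08, adjusted p = 0.0467). Slc27a2, a very long-chain acyl-CoA synthetase, was 0.47 and 0.62 higher in the low-fat and high-fat pair and just missed the threshold (adjusted p = 0.051), whereas Scarb1, the receptor for high-density lipoprotein, was 0.40 lower (adjusted p = 0.284). Of the 26 genes 18 were higher on both diets and 7 lower, against 34.4% and 29.5% of all genes, with a median of 0.08. The nuclear receptor Pparg, a fatty acid sensor, was at 6.75 and 7.28 in young and old mice of the low-fat pair and at 6.95 and 7.46 in the high-fat pair, with both old arrays above both young arrays (0.52 log2 units, SE 0.08, adjusted p = 0.0427).

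The sequence before the start of Fabp1 is shown because this called gene of lipid handling holds a match to a spaced direct repeat of the kind that nuclear receptors such as the PPARs bind. The 250 bases lie at chr6:71199629-71199878 on the plus strand of GRCm38.p6 (RefSeq), with the match, on the opposite strand from 67 to 55 bases before the start, in capitals.
Fabp1: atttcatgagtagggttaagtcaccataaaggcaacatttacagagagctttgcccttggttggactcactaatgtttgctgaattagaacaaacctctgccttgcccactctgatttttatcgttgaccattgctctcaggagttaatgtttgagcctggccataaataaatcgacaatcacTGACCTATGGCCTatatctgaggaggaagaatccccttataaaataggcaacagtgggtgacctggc
The searched letters, AGGNCANAGGNCA on either strand, were found in 125 of 32851 RefSeq promoter windows of 300 bases (0.381%). None of 33 windows of the fatty acid oxidation genes held them, Pdk4 included, and a match describes these letters and no binding. Promoter windows were at hand for 49 of the 68 called genes, and Fabp1 was the only one among them with the repeat.

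Retsat and Adh4, enzymes that act on retinol among other substrates, were called as well. Retsat, the retinol saturase, was at 8.74 in young and 9.35 in old mice of the low-fat pair and at 9.57 and 10.09 in the high-fat pair (0.56 log2 units, SE 0.08, adjusted p = 0.0396), so that it rose with age and was higher on the high-fat diet at both ages. Adh4, an alcohol dehydrogenase that also oxidizes retinol, was at 5.76, 6.53, 5.99 and 6.74 in young low-fat, old low-fat, young high-fat and old high-fat mice, without overlap between the ages (0.76, SE 0.11, adjusted p = 0.0396). The estimates of Pparg, Retsat and Adh4 stayed at or above 0.46, 0.51 and 0.70 log2 units under all 17 alternatives run, but the calls were lost under 9, 9 and 8 of them. Fabp1, Pparg, Retsat and Adh4 each lost the call without the intensity filter, without the proximal or the middle arrays, without any 1 distal array, and with each array centred on the brush border genes, an alternative added after seeing the data. Adh1, the related enzyme abundant in enterocytes, was 0.42 higher (adjusted p = 0.0569), and Rbp2, the cellular retinol-binding protein of enterocytes, was 0.43 higher (adjusted p = 0.0714), neither of which passed the test.

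Enpp3, an ectoenzyme of the cell surface that cleaves extracellular nucleotides, had an age gap of the same size on both diets. It was at 9.26 in young and 10.20 in old mice of the low-fat pair and at 9.39 and 10.32 in the high-fat pair, and the diets differed by 0.12 log2 units at either age. The estimate was 0.93 (SE 0.07, adjusted p = 0.00803), or 1.91-fold. Serpinb5, an epithelial serpin also known as maspin, was at 6.07 and 7.47 in young and old mice of the low-fat pair and at 5.85 and 6.74 in the high-fat pair (1.14, SE 0.15, adjusted p = 0.0339). Aim2, a cytosolic sensor of DNA, was at 6.35 and 7.32 in the low-fat pair and at 6.30 and 6.99 in the high-fat pair (0.83, SE 0.09, adjusted p = 0.0237). In all 3 genes both old arrays lay above both young arrays.

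The other large rises included non-coding RNAs. Gm10451, annotated as a long non-coding RNA, was 1.03 log2 units higher (SE 0.09, adjusted p = 0.01), and Firre, a long non-coding RNA of the X chromosome, 0.60 higher (SE 0.08, adjusted p = 0.039). Pcdh19, a cell adhesion protocadherin, was 0.81 higher, Upb1, an enzyme of pyrimidine breakdown, 0.64, the small nucleolar RNA Snora62 0.64, Clmn 0.58 and Sp100, a component of nuclear bodies, 0.54, with adjusted p between 0.0326 and 0.039. In 16 of the 19 called rises both old arrays lay above both young arrays, compared with 22.4% of all genes. The rises were called on these same arrays, so the count lends them no support. Car1, Fabp1 and Retsat, with their large diet differences, were the exceptions. Only 4 of the 19 belonged to a gene list, among them Pdgfrb, a receptor of pericytes and fibroblasts, which was 0.51 log2 units higher (SE 0.07, adjusted p = 0.039). In its list of endothelium and pericytes 11 of the 15 tested genes were lower in old mice on both diets, against 29.5% of all genes.

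**Figure D2:**
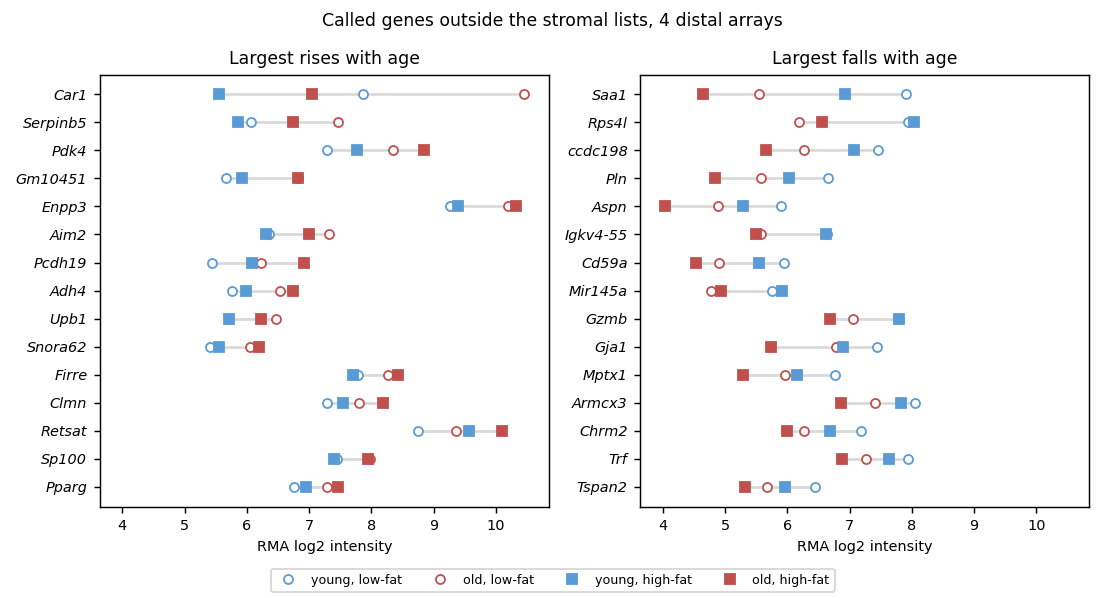
RMA log2 intensity on each of the 4 distal arrays for the 15 largest called rises (left) and falls (right) outside the lists of stromal genes. Open circles are low-fat and filled squares high-fat arrays, blue for young and red for old mice. Red lies to the right of blue on the same diet in every rise and to the left in every fall, and the shift between diets is widest for Car1.

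The largest fall was that of Saa1, the acute phase protein serum amyloid A, which the ileal epithelium makes in response to adherent bacteria. Its log2 intensity was 7.91 in young and 5.54 in old mice of the low-fat pair, and 6.93 in young and 4.65 in old mice in the high-fat pair. Both old arrays were below both young arrays, and the high-fat diet was lower at either age. The estimate was -2.33 log2 units (SE 0.23, adjusted p = 0.0149), a level 5.02-fold lower. Saa1 has near-identical copies in the mouse genome, whose transcripts its probes may also bind. Among the 22 tested genes of epithelial defence and the acute phase it was the only call. Reg3b and Reg3g, secreted antibacterial lectins, lay between 12.77 and 13.56 on the 4 arrays and were lower by 0.40 and 0.41 log2 units without passing the test (adjusted p = 0.189 and 0.158). Reg4 was 0.05 lower in the low-fat and 1.00 lower in the high-fat pair, and Nox1, an NADPH oxidase of the epithelium, was 1.10 higher in the low-fat and 0.13 higher in the high-fat pair.

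A stretch of 30 bases before a start of Saa1 is shown because it holds the only match in its window to the letters TTGCNNAA, a form of the site bound by the C/EBP factors of the acute phase. It lies at chr7:46743144-46743173 on the minus strand of GRCm38.p6 (RefSeq), with the match, from 182 to 175 bases before that start, in capitals. The start is the one used for the promoter window. The stretch itself lies inside the annotated span of the gene, chr7:46740497-46743181, and so not upstream of the whole gene.
Saa1: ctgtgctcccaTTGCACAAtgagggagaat
These letters, searched on both strands, were present in 10.8% of all 32851 windows, so that a match by itself is common, in 2 of 24 windows of the defence genes and in 14 of 59 windows of the 49 called genes with a window, counts that carry no test.

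Rps4l, which RefSeq annotates as a transcribed pseudogene related to ribosomal protein S4, had the smallest adjusted p of all genes. It was at 7.93 in young and 6.19 in old mice of the low-fat pair and at 8.04 and 6.55 in the high-fat pair (-1.61 log2 units, SE 0.09, adjusted p = 0.00283). A second probe set given to the gene was lower in old mice by 1.05 and 0.96 log2 units in the low-fat and high-fat pair. Rps4x, the expressed ribosomal protein S4 to which it is related, was 0.00 and 0.26 lower, and no other of the 7 tested genes of ribosomal protein paralog pairs was called. Rps4l was the only call that remained without the high-fat pair. It was called in each of the other segments as well, at -1.18 proximally (adjusted p = 0.0135) and -1.54 in the middle (adjusted p = 0.00394). The probes may share sequence with other copies of the S4 gene.

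The other large falls outside the stromal lists spanned several functions. The gene ccdc198 was at 7.46 in young and 6.27 in old mice of the low-fat pair and at 7.07 and 5.66 in the high-fat pair (-1.30 log2 units, SE 0.17, adjusted p = 0.0375). Cd59a, which protects cells from complement, was at 5.95 and 4.91 and at 5.55 and 4.53 (-1.03, SE 0.14, adjusted p = 0.0392), with only the young low-fat array over the floor of 50. In both genes the old arrays lay below the young arrays, as in all 49 falls, compared with 18.6% of all genes. The falls were called on these same arrays, so this count lends them no support either. Armcx3, a protein of mitochondria, fell by 0.81 log2 units (adjusted p = 0.0256), and its other 2 probe sets were lower on both diets as well. Transferrin (Trf) was 0.72 lower (adjusted p = 0.0201) and the tetraspanin Tspan2 0.71 lower (adjusted p = 0.0396). The remaining 15 of the 30 falls outside the stromal lists had estimates from -0.70 to -0.52. They included fibronectin (Fn1, -0.61), Grem1 (-0.65), Ccdc80 (-0.66) and Adgrf5 (-0.70), also known from connective tissue or vessels. The stromal lists therefore do not hold every stromal fall.

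Paneth cell genes gave 1 call among 12 tested. Mptx1, a pentraxin secreted by Paneth cells, was at 6.77 and 5.97 in young and old mice of the low-fat pair and at 6.16 and 5.29 in the high-fat pair (-0.83 log2 units, SE 0.10, adjusted p = 0.0335). Of the list 10 were lower in old mice on both diets and 1 was higher, against 29.5% and 34.4% of all genes. The median was -0.20 in the low-fat and -0.63 in the high-fat pair. The ribonuclease Ang4 was 0.27 lower in the low-fat and 0.84 lower in the high-fat pair, Habp2 0.38 and 1.22 lower, and colipase (Clps) 0.23 and 0.80 lower, all with adjusted p above the threshold (0.223, 0.152 and 0.26). Lysozyme (Lyz1) was 0.07 and 0.23 lower. The summed intensity of the 12 genes was 31842 in young and 29159 in old mice of the low-fat pair and 28947 and 21923 in the high-fat pair. Of 24 genes listed, among them many near-identical defensins, 13 had a probe set with a single symbol, so that most defensins were not tested.

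Crypt genes gave no call, and their values were lowest in the pool of old high-fat mice. Of 35 genes of the cell cycle and DNA replication, 17 were lower in old mice on both diets and 0 higher, against 29.5% and 34.4% of all genes. The median was 0.00 in the low-fat and -0.36 in the high-fat pair. Rrm1, a subunit of ribonucleotide reductase, was at 9.14 and 8.92 in the low-fat pair and at 9.16 and 7.93 in the high-fat pair in young and old mice (adjusted p = 0.157), so that the old high-fat array alone was low. Of 19 genes of crypt stem cells and Wnt targets, 11 were lower on both diets and 2 higher, beside the same 29.5% and 34.4% of all genes. Their medians were -0.06 and -0.27. The stem cell marker Olfm4 was 0.12 lower in the low-fat and 0.81 lower in the high-fat pair (adjusted p = 0.184), whereas Ascl2, a transcription factor of crypt stem cells, was lower by 0.47 and 0.43 (adjusted p = 0.133).

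Lists of absorption, and those of goblet cells, cell junctions and xenobiotic metabolism, had medians near 0. No gene was called among 18 of brush border structure, 15 brush border peptidases and alkaline phosphatases, 18 peptide and amino acid transporters, 16 of sugar digestion and fructose metabolism, 20 of cholesterol synthesis, 25 of ion and water transport, 28 of minerals and vitamins, 42 of xenobiotic metabolism, 19 of goblet cells and mucins and 17 of cell junctions. Over all genes 0.159% were called higher and 0.411% lower, so an absence of calls in lists of this size says little. The medians of the lists lay between -0.04 and 0.05 log2 units. The summed intensity of the brush border structure genes was 65933 and 65974 in young and old mice of the low-fat pair and 66528 and 67656 in the high-fat pair. Within these lists the largest estimates included lactase (Lct), which was higher by 0.45 and 0.57 in the low-fat and high-fat pair (0.51, adjusted p = 0.0562), the carboxylesterase Ces1g (0.67, adjusted p = 0.0502) and the iron exporter Slc40a1, or ferroportin (-0.69, adjusted p = 0.0502). These 3 lay just outside the threshold.

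Enteroendocrine genes gave 1 call among 18. Cpe, the carboxypeptidase that trims prohormones, was at 8.09 and 7.56 in young and old mice of the low-fat pair and at 7.74 and 7.12 in the high-fat pair (-0.58, SE 0.07, adjusted p = 0.0326), without overlap between the ages. On both diets 9 members were lower and 3 higher, against 29.5% and 34.4% of all genes, with a median of -0.13. Neurod1, a transcription factor of these cells, was lower by 0.35 and 0.50 (adjusted p = 0.0863), and the goblet cell mucin Muc2 was higher by 0.26 and 0.49 (adjusted p = 0.129).

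In bile acid handling none of 10 tested genes was called. Fabp6 differed between old and young by 0.00 in the low-fat and -0.01 in the high-fat pair, but its SE was 0.58 because the pairs departed from each other in the other segments. Slc10a2 was 0.35 and 0.20 lower in old mice, and Fgf15 was 0.34 and 0.61 higher (adjusted p = 0.64 and 0.402). Of 15 regional transcription factors 10 were higher in old mice on both diets and 3 lower, against 34.4% and 29.5% of all genes. Their median was 0.10, and none was called. Cdx2, a factor of intestinal identity, was higher by 0.20 and 0.25 and Gata4, a factor of the proximal intestine, by 0.17 and 0.40 in the low-fat and high-fat pair.

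For genes of micronutrient uptake that the study names, the distal segment gave no call. Cubilin (Cubn), the receptor for vitamin B12 bound to intrinsic factor, was at 12.00 and 11.89 in young and old mice of the low-fat pair and at 11.93 and 11.98 in the high-fat pair (-0.02, SE 0.08, adjusted p = 0.896). Cybrd1, a ferric reductase, was at 6.00, 5.78, 5.82 and 5.68 in young low-fat, old low-fat, young high-fat and old high-fat mice (-0.18, adjusted p = 0.495). Metallothionein 2 (Mt2), which binds zinc and copper, was at 8.83 and 9.88 in the low-fat pair and at 8.93 and 8.83 in the high-fat pair, so that only the old low-fat array was high (0.48, SE 0.43, adjusted p = 0.574).

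Outside the epithelium, smooth muscle genes made up 15 of the 49 falls. Of 20 tested genes 18 were lower in old mice on both diets and 0 higher, against 29.5% and 34.4% of all genes. The median was -0.89 in the low-fat and -0.97 in the high-fat pair. Myl9, the regulatory light chain of smooth muscle myosin, was at 9.60 and 8.47 in young and old mice in the low-fat pair and at 8.94 and 7.51 in the high-fat pair (-1.28, SE 0.15, adjusted p = 0.0256). Smooth muscle gamma-actin (Actg2) was at 8.85 and 7.78 and at 8.38 and 7.23 (-1.11, SE 0.09, adjusted p = 0.00803). In these genes both old arrays lay below both young arrays, and the high-fat arrays below the low-fat array of the same age. The summed intensity of the 20 genes was 9529 and 5598 in young and old mice in the low-fat and 7284 and 4005 in the high-fat pair. Several falls outside the stromal lists are also known from muscle or connective tissue: Pln, or phospholamban, the regulator of the calcium pump (-1.13), asporin (Aspn), a matrix protein (-1.13), connexin 43 (Gja1, -0.91), the muscarinic receptor Chrm2 (-0.80) and the microRNA gene Mir145a (-0.99), each with an adjusted p between 0.0114 and 0.0396. In Pln, Aspn and Mir145a both old arrays lay below the intensity floor.

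A stretch of 30 bases before the start of Myl9 is shown because Myl9 was, among the 17 of 20 tested smooth muscle genes with a window, the 1 with a match to the CArG box, the element bound by serum response factor. It lies at chr2:156775293-156775322 on the plus strand of GRCm38.p6 (RefSeq), with the match, from 161 to 152 bases before the start, in capitals.
Myl9: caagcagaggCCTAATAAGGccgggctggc
The box, searched on both strands, was present in 1.63% of all windows and in 1 of 19 windows of these 17 genes. Actg2, Myh11 and Tagln had no window and were not searched.

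Of the fibroblast and matrix genes 3 of 21 were called lower, 18 were lower on both diets, against 29.5% of all genes, and the median was -0.55. Dermatopontin (Dpt) was at 6.60 and 5.62 in the low-fat pair and at 5.93 and 4.72 in the high-fat pair (-1.10, SE 0.09, adjusted p = 0.00803). Both old Dpt arrays lay below the intensity floor, so the size of this fall is uncertain. Sparcl1 was 1.04 lower (adjusted p = 0.039), and collagen III (Col3a1) was 0.55 lower (adjusted p = 0.0467). Osteoglycin (Ogn) was 0.47 lower in the low-fat and 1.41 lower in the high-fat pair and was not called. Rgs5, a marker of pericytes, was at 8.64 and 7.66 in young and old mice of the low-fat pair and at 8.05 and 6.99 in the high-fat pair (-1.02, adjusted p = 0.039), the only fall called among 15 endothelial and pericyte genes. Nerve, glial and pacemaker markers gave no call among 6 tested, with a median of -0.07. Adipocyte genes, which mark fat tissue, were lower on both diets in 6 of 8, among them adiponectin (Adipoq), which was 0.99 and 0.52 lower (adjusted p = 0.0569), with a summed intensity of 2199 and 1346 in young and old mice of the low-fat pair and 2299 and 1641 in the high-fat pair. Whether the make-up of the scrapings had a part in the differences of the epithelial genes was not tested.

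**Figure D3:**
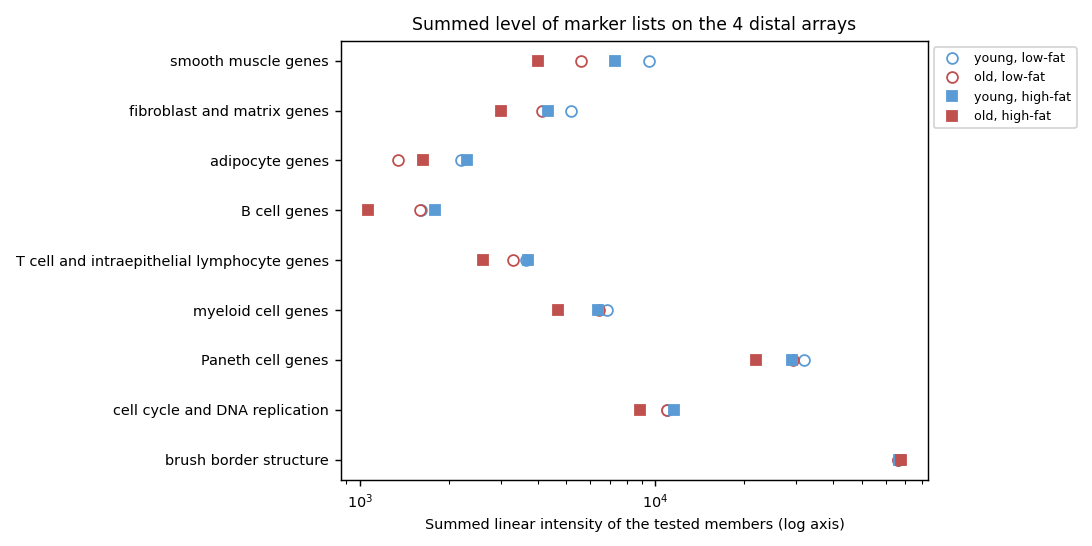
Summed linear intensity (log axis) of the tested members of 9 gene lists on the 4 distal arrays. Smooth muscle and matrix genes were lower in old mice (red) on both diets, B cell, lymphocyte, myeloid, Paneth and cell cycle genes were lowest on the array of old high-fat mice, and the brush border sums lay between 65933 and 67656.

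Among genes of T cells and intraepithelial lymphocytes 1 of 19 was called. Gzmb, the granzyme of cytotoxic lymphocytes, was at 7.79 and 7.05 in young and old mice in the low-fat pair and at 7.80 and 6.68 in the high-fat pair (-0.93, SE 0.13, adjusted p = 0.0396). In this list 11 genes were lower on both diets and 1 higher, against 29.5% and 34.4% of all genes. None of 17 B cell genes was called, with a median of 0.00 in the low-fat and -0.63 in the high-fat pair. Ms4a1, the B cell antigen CD20, was at 6.70 and 6.90 in the low-fat pair but at 7.28 and 5.51 in the high-fat pair, so that the young high-fat array was the highest and the old high-fat array the lowest. The summed intensity of the B cell genes was 1610, 1594, 1802 and 1067 in young low-fat, old low-fat, young high-fat and old high-fat mice. Jchain, the joining chain of secreted antibodies, was lower on both diets by 0.66 and 0.86 (adjusted p = 0.051).

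Gene segments of immunoglobulins varied between pools. Igkv4-55, a kappa variable segment, was at 6.63 and 5.58 in the low-fat pair and at 6.62 and 5.49 in the high-fat pair in young and old mice (-1.09, SE 0.10, adjusted p = 0.0122). Igkv19-93 was at 9.05 and 7.95 in the low-fat pair and at 10.26 and 7.32 in the high-fat pair, over 2-fold lower on both, and was not called (adjusted p = 0.0819). A second probe set given to Igkv19-93 was lower in old mice by 0.57 and 2.11 log2 units, over 2-fold in the high-fat pair only. Igkv4-91 went the other way in the low-fat pair, at 5.25 in young and 7.51 in old mice, against 5.52 and 5.18 in the high-fat pair. Variable segments resemble each other, so that a probe set may also bind the transcripts of related segments.

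Of the general stress lists, heat shock proteins were lower in old mice on both diets in 9 of 9 tested genes, without a call. Hsph1, a large chaperone of the Hsp70 superfamily, was at 9.99 and 9.43 in young and old mice in the low-fat pair and at 10.10 and 9.22 in the high-fat pair (-0.72, adjusted p = 0.0502). Hspa1a, the inducible Hsp70, was 0.46 and 0.87 lower (adjusted p = 0.0804). The median of the list was -0.29 here, compared with medians of -0.23 proximally and -0.24 in the middle. Of 19 genes of the unfolded protein response 13 were lower on both diets, with a median of -0.09. Of 41 subunits of oxidative phosphorylation 23 were lower on both diets and 5 higher, with a median of -0.04 and no call. Over all genes 29.5% were lower and 34.4% higher on both diets. The clock output gene Dbp was 0.56 and 1.32 lower (adjusted p = 0.0819), whereas the median of 14 clock genes was 0.02.

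**Figure D4:**
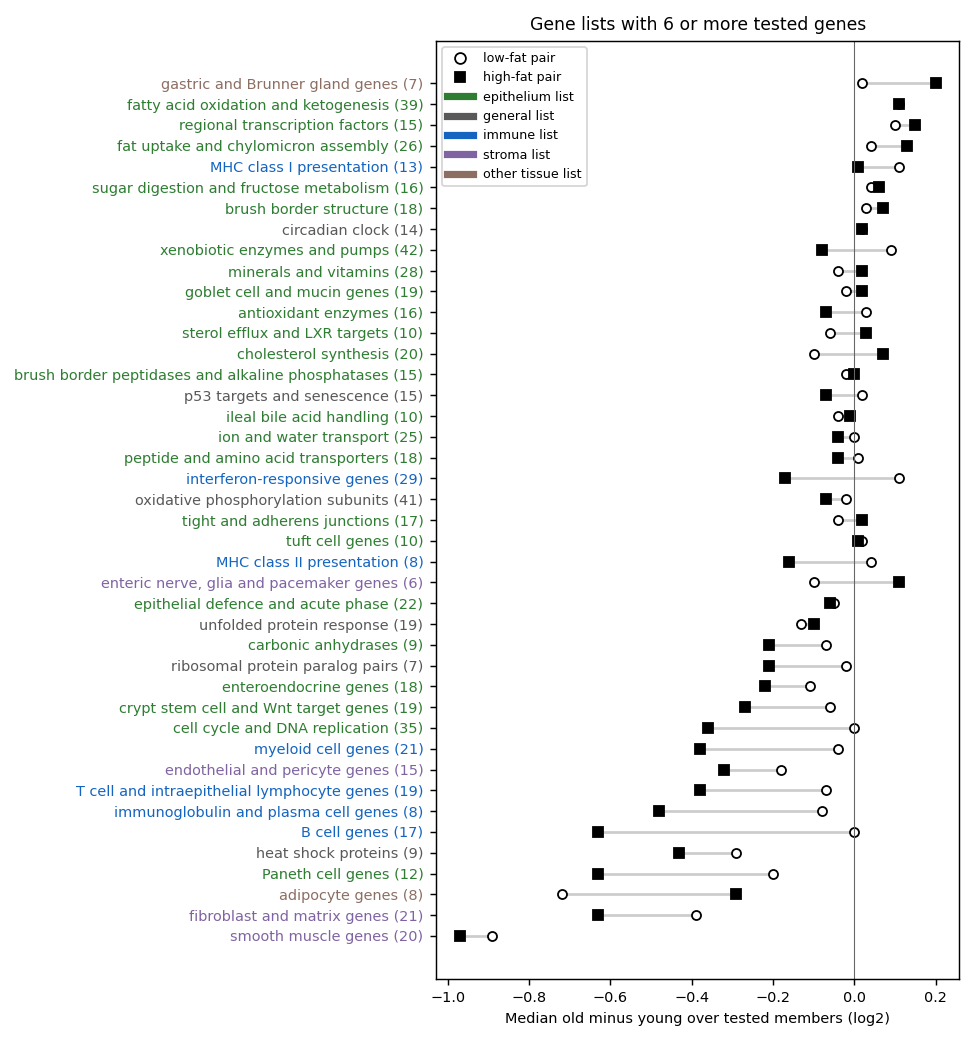
Median old-minus-young difference (log2) over the tested members of each gene list with 6 or more tested genes, in the low-fat pair (open circles) and the high-fat pair (filled squares), with the number of genes in parentheses and names coloured by class. Smooth muscle genes were lowest on both diets, B cell genes spanned 0.00 to -0.63, and most absorptive lists lay near 0.

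The difference between the diets in these lists could not be tested, as each combination of age and diet in the distal segment was 1 array, and the low values in the high-fat pair all came from the same array of old mice, which stood apart from the other 3. Across the 49 falls, 45 were lower on high-fat than on low-fat feeding at both ages, compared with 31.5% of all genes. Across the 19 rises 11 were higher on the high-fat diet at both ages, compared with 30.1% of all genes. These are counts over called genes and carry no test.

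The distal calls were set against the age difference of the same genes in the other segments, which come from other arrays but the same pools of mice. Of the 19 rises 14 were also higher in old mice proximally and 18 in the middle, with medians of 0.15 and 0.28 against 0.64 in the distal segment. Over all genes 51.2% and 58.3% were higher. Of the 49 falls 41 were lower proximally and 47 in the middle, with medians of -0.35 and -0.33 against -0.85, and over all genes 48.8% and 41.7% were lower. Among the 68 distal calls Enpp3 had the smallest p of the difference from either segment, with an age difference of -0.06 proximally and 0.05 in the middle (adjusted p = 0.0743 for distal minus proximal and 0.333 for distal minus middle). Gkn2, a gastrokine that was not called in the distal segment, had the same adjusted p for distal minus proximal. The age difference of Saa1 was 0.26 proximally and -1.60 in the middle, and that of Car1 was -0.14 and 0.24.

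No gene passed the threshold for a different age response between distal and proximal or between distal and middle segment in limma (0 of 11926 each, with 1051 and 1382 genes at an unadjusted p under 0.05). With a floor of 100 in place of 50 on intensity the first comparison gave 6 genes, and with the intensity trend and robust variance together 28 genes, while the second gave 1 under that last setting. A level in the distal segment that passed the test while another did not is therefore no measure of a difference between them. Upb1 passed in the middle segment too (1.01, adjusted p = 0.0282) and was 0.63 higher in the proximal segment. Gm10451 also passed in the middle (0.92, adjusted p = 0.0499) and was 0.39 higher proximally.

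**Figure D5:**
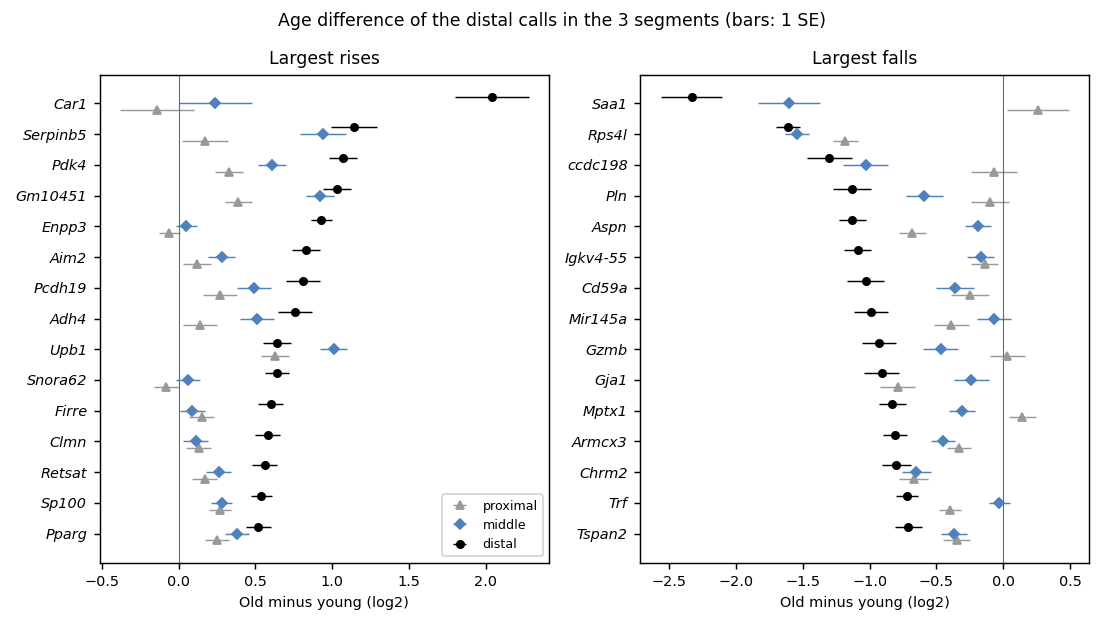
Old-minus-young difference (log2, mean of both diets) in the proximal, middle and distal segment for the 15 largest called rises (left) and falls (right) outside the stromal lists. Bars are 1 SE of the limma fit, which is equal in the 3 segments for a gene. Rps4l was low in old mice in all 3 segments, whereas Enpp3 was at -0.06 and 0.05 in the proximal and middle segment.

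Along the intestine, measured on the 8 arrays outside the distal segment, the position of the called genes was described without a test. Of the 19 rises 6 were brighter in the middle than in the proximal segment, and of the 49 falls 35 were, compared with 51.8% of all genes. The median middle-minus-proximal level was -0.12 log2 units for the rises and 0.21 for the falls.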

How the data were processed

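The authors hybridised pooled RNA (RNA integrity number above 8.0) to 1-colour Affymetrix Mouse Gene 1.0 ST arrays and deposited log2 values made by Robust Multi-array Average (RMA: background correction, quantile normalization, summary per probe set), which removes array-wide shifts. The RMA version is not given in the sources used here. Array medians lay between 5.57 and 5.7. Their small number limits the precision.

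Of 35556 probe sets 21789 had exactly 1 gene symbol in the platform annotation, 1621 several and 12146 none. The probe set brightest by the mean of 12 arrays stood for each of 19938 genes, and 11948 had a linear intensity over 50 on at least 1 array. After removal of 22 pancreatic acinar genes, 11926 were tested. limma 3.58.1 (R 4.3.3; lmFit, eBayes) was fitted to 12 arrays with segment, and age and diet within segment (9 coefficients, 3 residual degrees of freedom, prior 4.34), and p-values were adjusted by Benjamini-Hochberg over all genes. The pools are the samples, so p-values measure the spread between the diets' pairs, and a true interaction of age and diet enters the error. The script was tested on simulated data.

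The genes named are the 15 largest called rises and falls in no stromal list, those over 2-fold on both diets, up to 4 members with the largest estimates in each of 47 lists, and 6 marker or study-named genes. Reg3b, Reg3g, Lyz1 and Col3a1 were chosen after their values were seen. The lists hold 982 memberships, of which 763 were tested. Members, lists and motifs were chosen with earlier results of these data known. Medians and counts describe a list and test nothing. Alternatives were filters, probe set means, centring, quantile normalization, a pool block, an intensity trend with robust variance and subsets of arrays. Promoter windows (250 bases before to 50 after a start) came from RefSeq, GRCm38.p6, which was used for names and sequences only.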

Additional observations from a re-analysis of the deposited data

How the results depend on the processing

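Every value rests on 1 array for each age and diet, and the study offers no second distal sample of any group. The number of calls depended on the genes and arrays that set the error, and the cause was not tested except where fewer arrays entered the fit. Against 19 genes higher and 49 lower, no intensity filter gave 8 and 23, a floor of 50 on the distal arrays 30 higher, a floor of 100 gave 33 higher, and an intensity trend with robust variance 261 and 190. The distal arrays alone gave 10 higher, leaving out the proximal arrays 12, leaving out the middle arrays 4 and 12, and centring on the brush border list, added after seeing the data, 12 higher. Leaving out 1 distal array at a time gave 0 to 5 higher and 1 to 61 lower genes, with 0 and 1 without either high-fat array and 5 and 61 without either low-fat array, as the other pair then carries the estimate. Of the 68 called genes 47 were called again by the distal arrays alone, 16 without the low-fat pair and 1, Rps4l, without the high-fat pair, and all kept their direction under each alternative in which they were tested. The 15 smooth muscle genes fell to 9 without the filter, to 3 without the middle arrays and to 0 to 4 without 1 distal array. The distal minus proximal age difference gave 6 genes with the floor of 100, 28 with the trend and robust variance and 1 without the middle arrays, against 0, and the distal minus middle difference 1 gene with the trend and robust variance. The 2-fold counts stayed within 1.5 times of the values above under the 8 alternatives run for them. Old was paired with young on the same diet in every fit, as diet is a term of the model. Each of the 68 called genes had the same direction in both pairs, so leaving out arrays could not reverse it. A random block for the pool (estimated correlation -0.08) kept 66 of the 68 calls.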
